A study of Mus musculus with 13 samples.

Results

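Podocytes are the epithelial cells that cover the outer face of the glomerular capillary, and 10 genes of their actin and foot process apparatus were followed by name through glomerular RNA-Seq. They are *Synpo*, *Ddn*, *Actn4*, *Inf2*, *Myh9*, *Myo1e*, *Arhgap24*, *Arhgdia*, *Plce1* and *Podxl*. All 10 were found among the 35967 gene symbols of the table, and all 10 were among the 14322 genes tested. The rule goes by gene name, and the names were chosen with earlier results of these data known.

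Foot processes are thin extensions that interlock with those of the neighbouring podocyte and are bridged by the slit diaphragm. Parallel actin bundles run through their core, and a contractile actin network lies in the larger processes and the cell body. The bundles are crosslinked by α-actinin, turned over by formins and pulled by myosins. When the bundles are lost, foot processes flatten and albumin passes into the urine. Mutations in several of these genes cause hereditary nephrotic syndrome or focal segmental glomerulosclerosis.

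Glomeruli came from wildtype Balb/c mice that received 2.0 mg of rabbit IgG into the peritoneum. Control mice (n = 5) received preimmune IgG, and mice with membranous nephropathy (MN) received anti-THSD7A IgG and were killed at day 1 (n = 4) or day 5 (n = 4). THSD7A is a podocyte membrane protein and an autoantigen of human MN, and no transgene or deletion was part of these groups. Control mice of both days were combined by the authors, and the day of each is not in the labels. Mice used for induction were males of 14 to 15 weeks, and each library came from 1 mouse. Kidneys were perfused with magnetic beads so that glomeruli could be collected with a magnet, which leaves endothelial, mesangial and parietal cells in the sample.

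Values are TPM, a length-corrected share of all transcripts within a library that keeps no read depth. Listed TPM summed to between 989774 and 996064 per library, and Spearman correlations between libraries lay between 0.971 and 0.988. The 16 podocyte markers were present in every group, with a summed TPM of 7296 to 10440 in control mice, 8451 to 10600 at day 1 and 9115 to 9735 at day 5. Endothelial markers summed to between 10140 and 15020 TPM across all libraries, and leukocyte markers to between 29.3 and 60.6. Control replicate 2 had the lowest podocyte marker sum, and control replicate 5 had the highest tubule marker sum (9387 TPM, against 2751 to 4736 in the other control mice). Tubule markers summed to 4954 to 8451 TPM at day 1 and 3631 to 4299 at day 5.

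In control glomeruli these genes were among the more abundant transcripts. *Podxl* had a median of 3183 TPM and ranked 23 from the top of the tested genes by mean TPM. *Synpo* followed with 1476, *Actn4* with 717, *Ddn* with 640.1 and *Arhgdia* with 622. Lower medians were those of *Myh9* (387 TPM), *Arhgap24* (313), *Myo1e* (204), *Inf2* (114) and *Plce1* (91.0). *Plce1*, the least abundant, still ranked above 84.6% of the tested genes. The libraries of *Podxl*, *Synpo* and *Actn4* did not overlap with each other. Libraries of *Ddn* overlapped with those of *Actn4* and of *Arhgdia*, and libraries of *Myh9* overlapped with those of *Arhgap24*, so the order within these pairs was not separated by the spread between mice. Together the 10 genes took 7520 ± 439 TPM (SD, n = 5) in control mice, of which *Podxl* held 40.2% and *Synpo* 19.3%.

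The questions asked of each gene were whether its level differed between MN and control mice at day 1 and at day 5, and whether the 2 MN groups differed. TPM were scaled between libraries, 0.5 was added, and log2 values were fitted with limma over all 14322 genes, with Benjamini-Hochberg adjustment of the p-values. Calls required that the adjusted p lay under 0.05 and that the log2 fold change exceeded 0.5 in either direction. At day 5, 2 of the 10 genes were called, *Plce1* and *Ddn*, both lower in MN (20%, against 3.21% of all tested genes called in either direction and 0.789% called lower), a comparison that carries the limit that the genes were not chosen blind to the data. *Synpo* passed on the p-value and stayed short of the fold threshold, so that 3 of the 10 had an adjusted p under 0.05, as had 6.12% of all tested genes. An unadjusted p under 0.05 was found for 7 of the 10 and for 20.1% of all tested genes. The remaining 7 genes did not pass, and the log2 fold changes of the 10 genes ran from -0.60 to 0.31, with a median of 0.01 beside -0.0032 for all tested genes. At day 1 none of the 10 was called by limma, and 3 had an unadjusted p under 0.05 (12.6% of all tested genes had one, and 0.0908% were called).

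**Figure D1:**
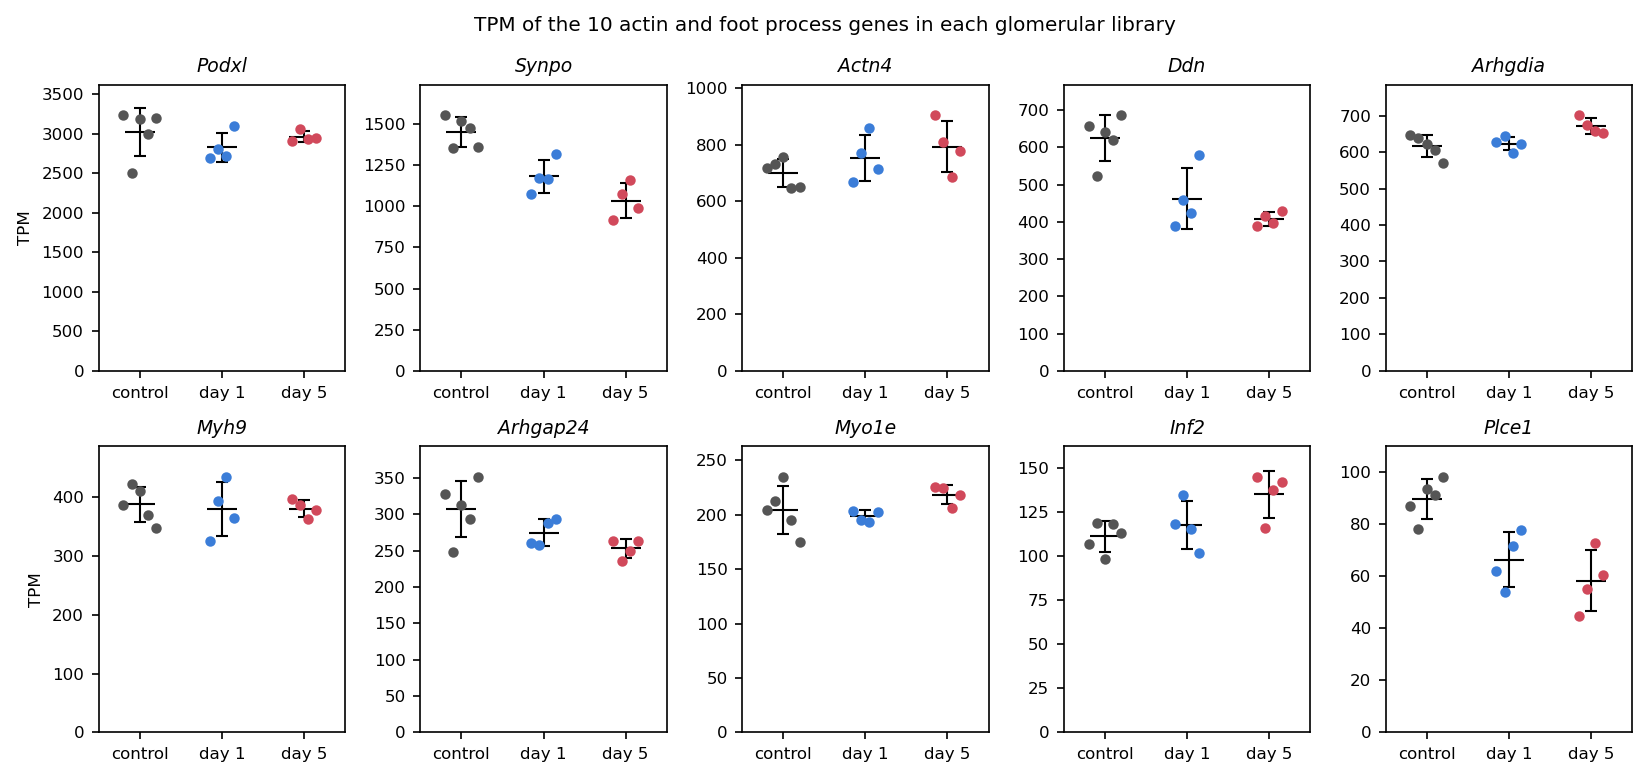
TPM of each gene (vertical axis, starting at 0) in the 5 control, 4 MN day 1 and 4 MN day 5 libraries, 1 point per mouse, with the group mean and SD as a bar. *Synpo*, *Ddn* and *Plce1* sit below all control mice in every day 5 library, while *Podxl* and *Myh9* overlap in all 3 groups.

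*Synpo* encodes synaptopodin, a proline-rich protein that binds α-actinin-4 and actin bundles in foot processes. Its TPM was 1552, 1350, 1518, 1476 and 1361 in the control mice. At day 1 it was 1074, 1169, 1163 and 1314, and at day 5 it was 915, 1076, 1159 and 986. In TPM, all 8 MN libraries lay below the lowest control library. After scaling between libraries, day 1 replicate 4 (1333) lay above control replicate 2 (1297). Against control, day 5 gave a log2 fold change of -0.46 with a standard error of 0.07 (adjusted p = 0.00197, limma), or 27.2% lower. Day 1 gave -0.25 with the same standard error (adjusted p = 0.241, limma). Quantile normalization moved the day 5 value to -0.50, at which *Synpo* was called. These values are RNA. For the protein, the paper reports unchanged synaptopodin in MN mice by immunofluorescence.

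*Ddn* encodes dendrin, a proline-rich partner of the slit diaphragm complex that is known to move to the nucleus of injured podocytes. It lies on chromosome 15 of GRCm39 from 98701658 to 98707371, on the minus strand, and an annotated long noncoding RNA, *B130046B21Rik*, overlaps its exons on the other strand. In control mice its TPM was 658, 524, 640.1, 619 and 686. The day 1 libraries had 389, 459, 422 and 578 TPM, of which 3 lay below all control mice and replicate 4 fell within their range. At day 5 the values were 388, 416, 396 and 429, all under the lowest control library and closer together than in the other groups (SD 18.7, against 61.9 in control and 82.6 at day 1). Day 5 differed from control by a log2 fold change of -0.58 ± 0.11 (standard error), with an adjusted p of 0.00699 (limma), which is 33.0% lower. The day 1 value of -0.40 (standard error 0.11) did not pass (adjusted p = 0.222, limma). With the tubule marker score as a covariate the day 1 value was -0.62 (adjusted p = 0.181, limma), and all 14 tubule markers were positive at day 1 (median 0.71 on the log2 scale). Each of 13 fits without a single library called *Ddn* at day 5.

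*Plce1* encodes phospholipase C epsilon, an enzyme activated by Ras family GTPases that splits a membrane phosphoinositide into inositol trisphosphate and diacylglycerol. Recessive mutations cause early-onset nephrotic syndrome with diffuse mesangial sclerosis. It lies on chromosome 19 of GRCm39 from 38469411 to 38773474 on the plus strand. Its TPM was 86.6, 78.1, 93.5, 91.0 and 98.1 in control mice, and 61.8, 53.8, 71.7 and 77.7 at day 1. At day 5 the values were 44.6, 55.1, 72.8 and 60.4. In TPM, no MN library reached the lowest control library at either day, although day 1 replicate 4 came within 1 TPM of it. After scaling between libraries, day 1 replicate 4 (78.9) lay above control replicate 2 (75.1). *Plce1* differed from control by a log2 fold change of -0.60 ± 0.12 (standard error) at day 5, with an adjusted p of 0.0106 (limma), or 33.9% lower. The day 1 value was -0.40 ± 0.12 (standard error), with an adjusted p of 0.249 (limma), and -0.60 with the tubule score as a covariate (adjusted p = 0.272, limma). The day 5 call rested partly on replicate 1, the lowest library: without it the log2 fold change was -0.497 and the adjusted p was 0.0384 (limma), just short of the fold threshold.

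*Actn4* encodes α-actinin-4, the main crosslinker of foot process actin, in which dominant mutations cause glomerulosclerosis. Its TPM was 717, 731, 755, 647 and 651 in control mice, 667, 769.8, 858 and 714 at day 1 and 904, 808, 685 and 777 at day 5. Of the day 5 libraries 3 exceeded all control mice, and replicate 3 lay within their range. The log2 fold change of 0.21 at day 5 did not pass (95% interval 0.00 to 0.42, adjusted p = 0.242, limma). *Inf2* encodes a formin that both assembles and severs actin filaments and is a frequent dominant cause of glomerulosclerosis. It had 107, 119, 98.5, 118 and 114 TPM in control mice, 118, 135, 116 and 102 at day 1 and 145, 116, 137 and 142 at day 5. Its log2 fold change of 0.31 at day 5 was the highest of the 10 genes (95% interval 0.11 to 0.51) and had an adjusted p of 0.0649 (limma). Replicate 2 alone of the day 5 libraries lay within the control range of TPM. After scaling between libraries, replicate 2 (119.2) lay above the highest control library (115.8).

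Neither motor gene passed the test. *Myh9*, the heavy chain of nonmuscle myosin IIA, had 348 to 423 TPM in control mice (median 387), 326 to 435 at day 1 and 362 to 396 at day 5. Its log2 fold change was 0.01 at both days, with a 95% interval from -0.16 to 0.18, and its sign changed when TPM were used as deposited (-0.02 at day 5). *Myo1e*, a single-headed myosin that links membrane to actin at the slit diaphragm, had 175 to 235 TPM in control mice (median 204), 193 to 204 at day 1 and 206 to 225 at day 5. Its log2 fold change was 0.14 at day 5 (95% interval -0.02 to 0.29, adjusted p = 0.32, limma) and 0.01 at day 1. In TPM, all 4 day 5 libraries of *Myo1e* lay above all 4 day 1 libraries. After scaling between libraries, day 5 replicate 3 (198.5) lay below day 1 replicate 1 (207.4). The difference of 0.12 between the days did not pass (adjusted p = 0.473, limma).

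*Arhgap24* encodes a GTPase-activating protein that turns off Rac1 in differentiated podocytes. It had 328, 249, 313, 294 and 352 TPM in control mice, 258 to 294 at day 1 and 236 to 264 at day 5. Control replicate 2 was the only control library within the day 5 range. The log2 fold change was -0.23 at day 5 (95% interval -0.44 to -0.03, adjusted p = 0.185, limma). Without control replicate 2 it was -0.32 with an adjusted p of 0.0239 (limma), under the fold threshold. The day 1 value was -0.11, and -0.31 with the tubule score as a covariate (adjusted p = 0.434, limma). *Arhgdia* is a gene in which recessive mutations cause nephrotic syndrome. Its TPM was 571 to 647 in control mice, 599 to 644 at day 1 and 654 to 701 at day 5. Before scaling between libraries, every day 5 library was thus above every other library. After scaling, day 5 replicate 3 (632.3) lay just under control replicate 1 (633) and under day 1 replicate 2 (664.3). In TPM before scaling, *Arhgdia* alone of the 10 genes lay above all control mice in every day 5 library. Its log2 fold change of 0.16 did not pass (95% interval 0.04 to 0.28, adjusted p = 0.111, limma).

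*Podxl* encodes podocalyxin, the heavily sialylated surface mucin that keeps foot processes apart by its negative charge and ties to actin through NHERF proteins and ezrin. Endothelial cells make it too. It had 3237, 2508, 3183, 3004 and 3198 TPM in control mice, 2691, 2811, 2721 and 3097 at day 1 and 2916, 3063, 2937 and 2950 at day 5. Control replicate 2 was the lowest library of all, and the day 5 libraries were the closest together (coefficient of variation 2.23%, against 10% in control mice). The log2 fold change was 0.01 at day 5 (95% interval -0.18 to 0.20, adjusted p = 0.964, limma) and -0.05 at day 1 (95% interval -0.23 to 0.14).

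**Figure D2:**
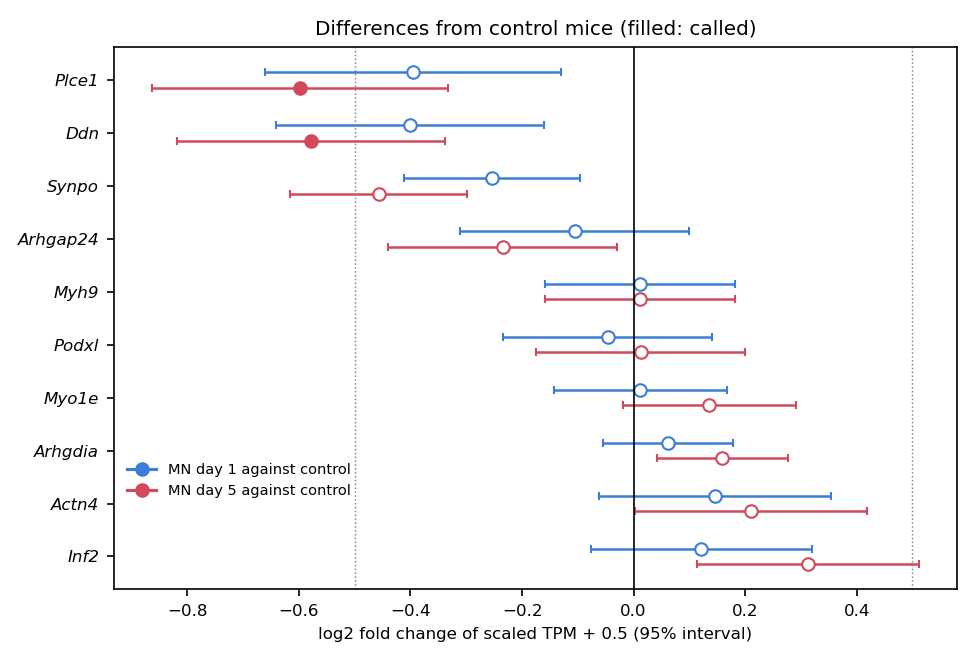
Log2 fold change of scaled TPM + 0.5 (horizontal axis) for each gene at day 1 and day 5 against control, with 95% limma intervals as bars and the dotted lines at the fold threshold. Filled points, *Plce1* and *Ddn* at day 5, are called, and the day 5 intervals of *Myh9*, *Podxl* and *Myo1e* cross 0.

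At day 5, the TPM of 4 of the 10 genes did not overlap with control mice, against 10.8% of all tested genes (5.71% lower and 5.07% higher). These were *Synpo*, *Ddn* and *Plce1* below the control range and *Arhgdia* above it. At day 1 the genes were *Synpo* and *Plce1*, both lower, against 4.22% of all tested genes (3.32% lower). Both comparisons share the same 5 control mice. These overlaps, and the shares over all tested genes, use TPM before scaling between libraries. After scaling, *Synpo*, *Ddn* and *Plce1* still lay below all control mice at day 5. *Arhgdia* then overlapped with control mice at day 5, and *Inf2* lay above them. At day 1, scaled values of *Synpo* and *Plce1* overlapped with control mice. Shares over all genes after scaling were not counted.

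MN day 5 and MN day 1 mice were compared directly in the same fit. None of the 10 genes was called by limma (1.81% of all tested genes were), and *Synpo* alone had an unadjusted p under 0.05, as had 15.5% of all tested genes. In TPM before scaling, *Myo1e* and *Arhgdia* did not overlap between the days, both higher at day 5, against 11% of all tested genes (6.12% higher). After scaling between libraries, both genes overlapped between the days. The log2 difference was -0.20 for *Synpo* (95% interval -0.37 to -0.04, adjusted p = 0.217, limma), -0.20 for *Plce1* (-0.48 to 0.08, adjusted p = 0.503) and -0.18 for *Ddn* (-0.43 to 0.08, adjusted p = 0.517). The interval for *Synpo* lay below 0 (unadjusted p = 0.0207, limma) but did not pass adjustment over all genes, and the intervals for *Plce1* and *Ddn* crossed 0. With the tubule marker score as a covariate the difference turned to 0.05 for *Ddn* and 0.01 for *Plce1*, and tubule markers stood higher at day 1 than at day 5. Their part in the difference was not tested.

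Ratios within a library do not depend on scaling between libraries. *Synpo* was 1.85 to 2.28 times as abundant as *Actn4* in control mice, 1.36 to 1.84 times at day 1 and 1.01 to 1.69 times at day 5. Neither MN group overlapped with control, although the day 1 and control ranges almost met. *Ddn* stood at 0.717 to 1.05 of *Actn4* in control mice, at 0.492 to 0.81 at day 1, which overlapped with control, and at 0.429 to 0.579 at day 5. The ratio of *Ddn* to *Synpo* overlapped in all groups (0.388 to 0.504 in control mice and 0.342 to 0.435 at day 5). *Plce1* stood at 0.0268 to 0.0311 of *Podxl* in control mice and at 0.0153 to 0.0248 at day 5. The share of *Synpo* in the summed TPM of the 10 genes went from 19.3% to 17.1% and 14.9%, and that of *Actn4* from 9.34% to 10.9% and 11.5%. These ratios are descriptions of values already compared above and were not tested. How many other gene pairs would not overlap was not counted.

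By DACH1 staining, the paper reports an unaltered podocyte number in MN mice. In RNA from whole glomeruli, fewer podocytes and less RNA per podocyte cannot be told apart. The 16 podocyte markers were therefore set beside the 10 genes. At day 5, 9 of the 16 were negative and 7 positive, with a median log2 fold change of -0.13, and 1 was called, *Cdkn1c*, a cell cycle inhibitor of mature podocytes, which rose (0.72, standard error 0.10, adjusted p = 7.1e-04, limma). With a podocyte marker score as a covariate, the day 5 log2 fold changes were -0.58 for *Plce1* (adjusted p = 0.00722), -0.55 for *Ddn* (adjusted p = 1.8e-04) and -0.44 for *Synpo* (adjusted p = 0.00128), all from limma. In that fit *Ddn* also had an adjusted p of 0.032 at day 1 (limma), with a log2 fold change of -0.37, under the fold threshold. Of the other markers at day 5, 2 of 8 tested parietal epithelial markers were called higher, *Cldn1* and *Cd44*, while 2 of the 8 were negative, *Dkk3* (-0.73, adjusted p = 0.0655, limma) and *Krt8* (-0.09). Of 5 smooth muscle markers 1 was called higher, *Tagln*. None of the 12 endothelial, 10 mesangial or 8 tested leukocyte markers was called at day 5 by limma. Positive were 11 of the endothelial, 7 of the mesangial and all 8 of the leukocyte markers (median 0.31). Over all tested genes 3.21% were called at day 5, so that few calls could be seen in marker lists of this size. Whether these shifts entered the values of *Actn4*, *Inf2*, *Myh9* or *Podxl*, which other glomerular cells also express, was not tested.

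Within groups some of the genes varied together from mouse to mouse. Log2 values were centred on their group means, so that the correlations describe mouse-to-mouse variation over 13 libraries that share sampling and scaling. *Actn4* and *Myh9* had a Pearson r of 0.89, and *Podxl* had 0.87 with *Ddn* and 0.83 with *Arhgap24*. With the podocyte marker score, r was 0.96 for *Podxl*, 0.89 for *Ddn* and 0.86 for *Arhgap24*, against 0.56 for *Synpo* and 0.53 for *Plce1*. For *Actn4*, *Myo1e* and *Arhgdia* it lay between -0.06 and -0.05. *Podxl*, *Ddn* and *Arhgap24* also went with the tubule marker score (r = 0.63, 0.59 and 0.64). Control replicate 2 stood apart, with a podocyte score of -0.37 against -0.10 to 0.23 in the other libraries. Among control mice that library was also the lowest for *Podxl*, *Ddn*, *Arhgap24* and the tubule score. These correlations lean on it, and values without it were not computed. *Myh9* ran against it (r = -0.64), and *Plce1* ran against *Arhgdia* (r = -0.80). Outside the 10 genes, the closest of 9703 genes to *Podxl* were *Il13ra1*, *Slc41a2* and *Elmo2*, each with r = 0.96. The closest to *Synpo* were *Amigo1* (0.89), *Mocs1* (0.88) and *C1d* (0.86). As the highest of 9703 values over 13 libraries, these r are inflated by the search and were not tested. None of these 6 genes was called at day 5 by limma, where 3.21% of all tested genes were.

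**Figure D3:**
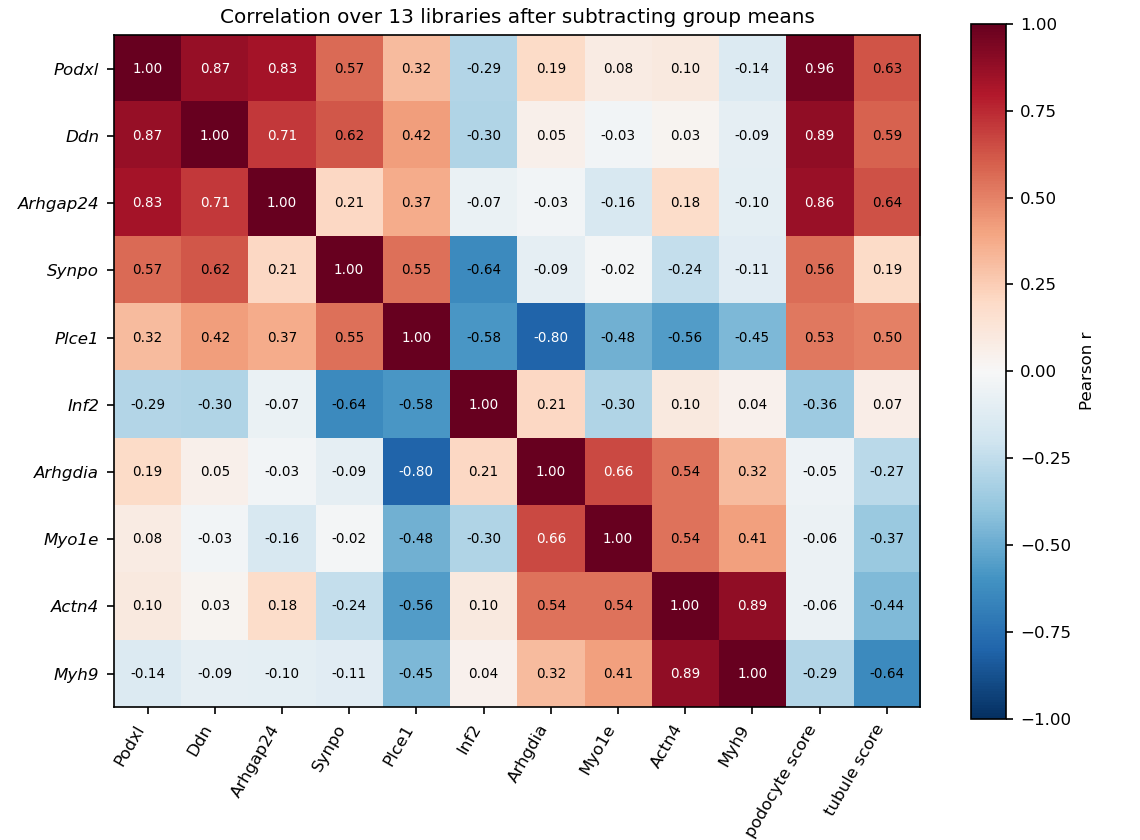
Pearson correlation of log2 scaled TPM over 13 libraries after subtraction of group means, for each pair of the 10 genes and for the podocyte and tubule marker scores (last columns). *Podxl*, *Ddn* and *Arhgap24* go with the podocyte score and, less closely, with the tubule score, and *Actn4* and *Myh9* form a separate pair.

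Close relatives of the 10 genes were compared from a list of 37, of which 28 were tested. None was called at either day by limma, where 3.21% of all tested genes were called at day 5 and 0.0908% at day 1, so that few calls could be seen in a list of this size. *Actn1*, the other nonmuscle α-actinin, had 95.6 ± 4.12 TPM (SD, n = 4) at day 5 against 79.1 ± 6.66 (SD, n = 5) in control mice, and its log2 fold change of 0.31 passed on the p-value alone (adjusted p = 0.0406, limma). *Actn4* exceeded *Actn1* by 7.97 to 9.61 times in control mice and by 6.95 to 9.43 times at day 5. *Cd34*, a sialomucin related to podocalyxin that marks endothelium, went from 342 ± 38.8 to 449 ± 31.8 TPM, a log2 fold change of 0.43 under the fold threshold (adjusted p = 0.00613, limma). *Plcd3*, of the delta phospholipases, had a log2 fold change of -0.44 at day 5 (adjusted p = 0.0127, limma), also under it. *Myh10*, the heavy chain of myosin IIB, had 0.36 (adjusted p = 0.295), and *Arhgdib*, the leukocyte relative of *Arhgdia*, had 0.23 (adjusted p = 0.268), both from limma. *Synpo2* was low, at 3.39 ± 1.44 TPM in control mice.

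The wider actin apparatus was read from lists of whole families and known partners, 331 genes in all with the relatives above and without the 10, of which 306 were tested. At day 5, 16 were called higher and 2 lower (5.88%, against 3.21% of all tested genes, of which 2.42% were higher), with a median log2 fold change of 0.05 beside -0.0032. The 2 that fell were kinases that act under Cdc42 and Rac, *Cdc42bpg* (-0.87, standard error 0.07, adjusted p = 1.7e-05, limma) and *Pak1* (-0.56, adjusted p = 0.0178). *Cdc42bpg* was also the single gene of these lists called at day 1, at 60.2 ± 6.62 TPM (SD, n = 4) against 88.9 ± 3.0 (SD, n = 5). That day 1 call was lost with the tubule score as a covariate, when only the 2 compared groups were fitted, and without MN day 1 replicate 1 or replicate 2, where 0 genes of these lists were called by limma (32 to 47 with an unadjusted p under 0.05).

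Of the 16 genes called higher, 7 belong to dividing cells or cytokinesis: *Anln* (2.54), *Iqgap3* (2.13), *Diaph3* (2.07), *Racgap1* (2.01), *Ect2* (1.74), *Arhgef39* (1.47) and *Arhgap11a* (1.33). Their mean TPM in control mice was between 0.455 and 4.44. The other 9 were *Tagln* (1.30), *Magi1* (0.76), *Kalrn* (0.73), *Tpm1* (0.67), *Myl9* (0.62), *Capg* (0.58), *Tpm2* (0.57), *Evl* (0.51) and *Zyx* (0.51). Among these, *Tagln*, *Tpm1*, *Tpm2* and *Myl9* encode proteins of contractile filaments. *Tpm1* went from 346 ± 29.6 to 538 ± 53.9 TPM and *Myl9* from 639 ± 82.3 to 960 ± 117 TPM (SD, n = 5 and n = 4). By list, counts are to be read beside the 2.42% of all tested genes called higher at day 5. Filament binding and bundling genes had 4 called higher of 31 tested and a median of 0.29, with 27 positive. Capping and turnover genes had 2 of 27 and a median of 0.16. Nucleators had 1 of 32, near that share. No gene was called among 8 podocalyxin linkers or 22 phospholipase C epsilon partners at day 5 by limma. Between the days, 8 of the 306 were called, all higher at day 5 (2.61%, against 1.41% of all tested genes). The lists overlap in a few genes, and smooth muscle markers, which share *Tagln*, summed to 780 to 1354 TPM at day 5 against 431 to 794 in control mice.

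**Figure D4:**
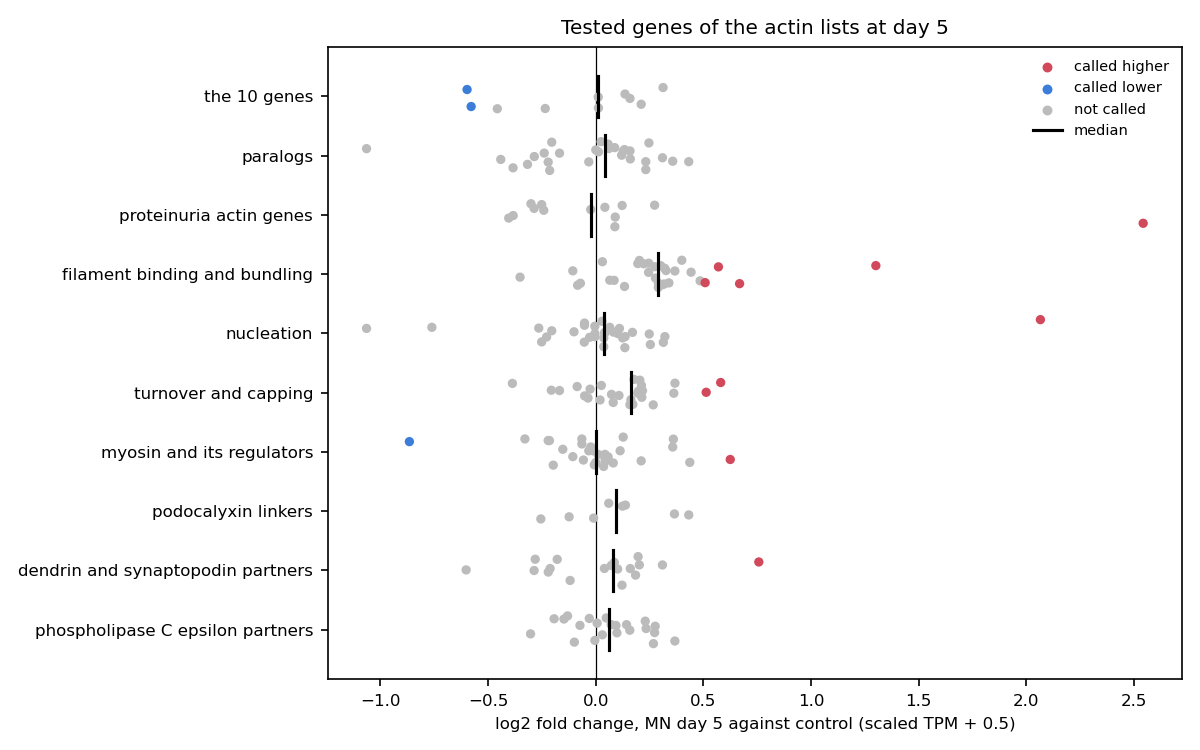
Log2 fold change at day 5 against control (horizontal axis) of the tested genes of the lists shown, 1 point per gene, with called genes in colour and the median as a black line. The lowest of the 10 genes, *Plce1* and *Ddn*, are called lower, and the other called genes shown lie above 0 except *Cdc42bpg*.

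Start site regions were taken for 6 of the 10 genes from the RefSeq promoter table (GRCm38.p6), which gave 8 regions of 250 bases before a start site. *Plce1* is shown because it was called, *Inf2* because it had the highest fold change, and *Myo1e* because it did not differ. Capitals mark matches on either strand to an E-box (CANNTG, bound by basic helix-loop-helix factors), the shared EGR and WT1 core (GCGNGGGCG), the TEAD core (GGAATG) or the CArG box of serum response factor.
Plce1, chr19:38523947-38524196 (plus strand): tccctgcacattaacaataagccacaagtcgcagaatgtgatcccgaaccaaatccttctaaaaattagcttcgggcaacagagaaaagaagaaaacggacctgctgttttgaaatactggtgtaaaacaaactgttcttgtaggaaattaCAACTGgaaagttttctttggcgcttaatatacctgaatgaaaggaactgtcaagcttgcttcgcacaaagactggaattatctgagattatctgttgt
Inf2, chr12:112588517-112588766 (plus strand): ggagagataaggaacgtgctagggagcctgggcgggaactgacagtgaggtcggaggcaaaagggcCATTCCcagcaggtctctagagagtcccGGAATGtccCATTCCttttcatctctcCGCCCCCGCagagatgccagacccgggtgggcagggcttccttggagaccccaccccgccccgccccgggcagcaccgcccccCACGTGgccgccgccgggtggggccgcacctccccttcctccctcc
Myo1e, chr9:70207100-70207349 (plus strand): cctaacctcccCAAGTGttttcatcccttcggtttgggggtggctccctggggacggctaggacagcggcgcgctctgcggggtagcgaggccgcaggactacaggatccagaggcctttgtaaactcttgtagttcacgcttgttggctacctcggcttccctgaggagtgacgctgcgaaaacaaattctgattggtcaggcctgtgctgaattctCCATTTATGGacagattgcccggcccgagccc

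The *Plce1* region was the poorest of the 8 in G and C, at 38.8%, which is at or above 10.2% of all 32536 such regions. It held 1 E-box, 99 bases before the start site of that region. *Plce1* has 10 annotated transcripts, and which start site the glomeruli used was not determined. The *Inf2* region had 68.4% G and C, with 3 TEAD cores and 1 EGR and WT1 core. In the *Myo1e* region a CArG box began 32 bases before the start site, the only 1 of the 8 regions with such a match. E-boxes occur in 66.2% of all regions, TEAD cores in 12.6%, the EGR and WT1 core in 4.74% and CArG boxes in 1.48%. A motif of LMX1B (TAATTA) was also searched and had no match in the 8 regions, against 4.84% of all regions. These matches describe letters in a window and were not tested against the changes in TPM.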

How the data were processed

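Per the labels and the methods, RNA was sequenced as 150-base paired reads, checked with FastQC 0.11.9, trimmed with Trimmomatic 0.39 and assigned to GRCm39 transcripts (Ensembl 104) with kallisto 0.46.2. The authors deposited TPM, 1 value per gene symbol and library, rescaled within each library. The table holds no counts, so depth was unknown, no counting error was attached, and limma replaced the count test of the study. Libraries were scaled by median-of-ratios factors of 0.954 to 1.04, and values were taken as log2 of the scaled TPM plus 0.5. A gene was tested if 4 or more libraries reached 1 TPM, with limma 3.58.1 in R 4.3.3 (all 3 groups, eBayes with trend), with Benjamini-Hochberg adjustment over 14322 genes. The fit was tested on simulated data. Groups came from sample titles. The 10 genes and the lists were chosen with earlier results of these data known. All 10 genes, called list genes, tested relatives and the 3 closest genes to *Synpo* and *Podxl* could be named. Coordinates are from GENCODE on GRCm39, the build of the files. Python 3.11.15 and matplotlib 3.10.9 drew the plots. The alternatives were other pseudocounts, scaling, filters, weights, covariates, a replicate block and leaving out each library. Proteins were not analysed here, and results for some lists are not reported here.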

Additional observations from a re-analysis of the deposited data

How the results depend on the processing

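The calls of *Ddn* and *Plce1* at day 5 held in all 14 other settings. Quantile normalization and the adjusted p alone added *Synpo*, at -0.50 and -0.46. Leaving out 1 library gave 1 to 2 called genes at day 5, the 1 being without MN day 5 replicate 1, where *Plce1* was at -0.497. None of the 10 was called at day 1 in any of these fits by limma (3 to 5 with an unadjusted p under 0.05 in the 14 settings).

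Replicate numbers label different mice, and deviations of same-numbered libraries correlated at -0.056 to 0.091, so they do not pair the samples. With a replicate block, 149 genes were called at day 1 against 13, and 3 list genes against 1, and none of the 10 genes changed its call.

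At day 1 the count over all genes was 6 with no filter on low TPM, 7 without the trend, 2 with only the 2 compared groups, 36 with the podocyte score and 0 with the tubule score (limma, 1192 with an unadjusted p under 0.05), where 0 list genes were called, as with only the 2 compared groups. Leaving out 1 library gave 3 to 218 genes, the highest without control replicate 5, and 0 to 3 list genes. At day 5 the adjusted p alone gave 876 genes and 46 list genes, and leaving out 1 library gave 326 to 474 and 13 to 20. Between the days the counts were 153 genes and 4 list genes where every library had to reach 1 TPM, 414 genes with only the 2 compared groups, 119 genes and 5 list genes with the tubule score, 398 genes with the podocyte score and 13 list genes with the adjusted p alone. Leaving out 1 library gave 150 to 437 genes (lowest without MN day 5 replicate 2) and 5 to 10 list genes. The cause of these shifts was not tested.

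Signs changed only for values that were not called, among them the differences of *Ddn*, *Plce1* and *Arhgap24* between the days (-0.18, -0.20 and -0.13). With TPM as deposited, log2 fold changes were -0.034 for *Myo1e* and -0.0341 for *Myh9* at day 1 and -0.0233 for *Myh9* and -0.0226 for *Podxl* at day 5. With quantile normalization they were -0.0047 for *Myo1e* and -0.0284 for *Myh9* at day 1, -0.0654 for *Myh9* and -0.0092 for *Podxl* at day 5 and -0.0371 for *Myh9* between the days. TMM factors gave -0.0088 for *Myh9* between the days. The replicate block gave -0.029 for *Myo1e* at day 1 and -0.0129 for *Myh9* at both days. Array weights gave -0.0051 for *Podxl* at day 5 and -0.0024 for *Myh9* between the days. The tubule score gave differences between the days of -0.0797 for *Actn4*, 0.0818 for *Arhgap24*, -0.17 for *Myh9*, 0.0527 for *Ddn* and 0.014 for *Plce1*. Without 1 library, *Myo1e* lay between -0.0281 and 0.0629 at day 1, *Myh9* between -0.0462 and 0.0812 at day 1, -0.0267 and 0.0587 at day 5 and -0.07 and 0.058 between the days, *Podxl* between -0.0625 and 0.0471 at day 5, and *Actn4* between -0.0181 and 0.16 between the days.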
